A study of Mus musculus with 6 samples.

Results

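The 10 genes of mitochondrial fusion, fission and mitophagy were measured in whole livers of mice that lack *Nek7*, a mitotic kinase gene, in hepatocytes. They were taken by symbol from the deposited gene expression table, and all 10 of 10 were found among its 17975 genes. The fusion genes were *Mfn1*, *Mfn2* and *Opa1*, the fission genes *Dnm1l*, *Fis1* and *Mff*, and the mitophagy genes *Pink1*, *Bnip3*, *Bnip3l* and *Fundc1*. Total RNA was sequenced from 3 Hom livers, from homozygous knock-out mice with the floxed *Nek7* allele and Cre (NEK7fl/fl-Alb-Cre+), and from 3 livers labelled WT. The Alb-Cre transgene is driven by the albumin promoter, which is active in hepatocytes, whereas the RNA came from whole liver with all its cell types. The floxed and Cre lines were on a C57BL/6 background. No treatment is given in the labels, and neither is the age or sex of the sequenced animals, nor whether the WT livers carried a floxed allele or Cre. Each library came from the liver of a separate mouse, per the study's methods.

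Mitochondria divide and join continuously. MFN1 and MFN2 tether and fuse the outer membranes of neighbouring mitochondria, and OPA1 fuses the inner membranes and keeps the cristae in shape. DRP1, the product of *Dnm1l*, is a dynamin-like GTPase that constricts the organelle after adaptors such as MFF and FIS1 have brought it to the surface. Mitophagy removes damaged mitochondria by 2 broad routes. In the first, the kinase PINK1 accumulates on depolarised mitochondria and marks them through phosphorylated ubiquitin. In the second, receptors in the outer membrane (BNIP3, BNIP3L, also called NIX, and FUNDC1) bind proteins of the LC3 family directly, and *Bnip3* is a classical target gene of the hypoxia-inducible factors (HIF).

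*Opa1*, *Pink1* and *Bnip3* stand for 3 different positions in this system, the inner membrane fusion GTPase, the ubiquitin route and the receptor route. The 250 bases before their start sites are given here because *Opa1* and *Pink1* were the members with the largest differences between Hom and WT, and because *Bnip3* is the member long known as a HIF target. The sequences are from RefSeq, build GRCm38.p6, and are written in the direction of transcription. The window of *Bnip3* lies at chr7:138909507-138909756 on the minus strand, that of *Opa1* at chr16:29579084-29579333 on the plus strand, and that of *Pink1* at chr4:138326297-138326546 on the minus strand. Capitals mark ACGTG and GCGTG, the core of the element bound by HIF, on either strand, and the binding motif of NRF1, a regulator of nuclear genes for mitochondrial proteins, which was added after the sequences had been seen.

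Bnip3: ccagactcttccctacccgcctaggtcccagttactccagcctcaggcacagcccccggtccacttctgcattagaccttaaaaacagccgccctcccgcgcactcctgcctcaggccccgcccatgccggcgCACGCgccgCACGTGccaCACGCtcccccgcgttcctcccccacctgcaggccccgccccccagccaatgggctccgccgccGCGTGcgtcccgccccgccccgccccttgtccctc

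Opa1: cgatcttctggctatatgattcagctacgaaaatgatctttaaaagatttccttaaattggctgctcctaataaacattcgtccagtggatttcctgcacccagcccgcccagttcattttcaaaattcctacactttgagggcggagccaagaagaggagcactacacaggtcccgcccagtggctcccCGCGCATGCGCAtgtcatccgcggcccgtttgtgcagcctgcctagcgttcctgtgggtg

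Pink1: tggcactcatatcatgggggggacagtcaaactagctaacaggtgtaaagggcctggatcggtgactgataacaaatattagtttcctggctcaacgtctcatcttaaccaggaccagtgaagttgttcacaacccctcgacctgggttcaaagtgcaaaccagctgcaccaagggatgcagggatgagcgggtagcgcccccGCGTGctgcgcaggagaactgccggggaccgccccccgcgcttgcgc

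The window of *Bnip3* held 2 matches to ACGTG, which overlap as the palindrome CACGTG, and 3 matches to GCGTG. That of *Pink1* held 1 match to GCGTG, and that of *Opa1* neither core but 1 NRF1 motif. RefSeq windows were matched for 9 of the 10 members, 14 windows in all, and 4 members (*Bnip3*, *Pink1*, *Mfn2* and *Dnm1l*) held a core in at least 1 window. Over all 32851 promoter windows of the same length, 38.6% held either core (ACGTG 16.6% and GCGTG 28.2%), and 0.998% held the NRF1 motif, which *Opa1* held among the members. A match is only a description of the letters, since no binding was measured. The other members lie on chromosome 3 (*Mfn1*), 4 (*Mfn2*), 16 (*Dnm1l*), 5 (*Fis1*), 1 (*Mff*), 14 (*Bnip3l*) and X (*Fundc1*).

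*Nek7* was the check of the labels. Its estimated counts were 1127, 1077 and 1036 in the WT livers and 310, 439 and 387 in the Hom livers, and it fell by 1.99 on the log2 scale (SE 0.10, adjusted p = 1.59e-04, edgeR quasi-likelihood test). Library totals lay between 19349418 and 19730236 estimated counts. Of 13805 genes tested, 20.1% were lower and 21.5% higher in Hom at an adjusted p under 0.05. The TMM scaling factors did not overlap (0.806 to 0.924 in WT, 1.09 to 1.23 in Hom), so each direction is relative to the bulk of genes, and with library size alone the median gene moved from -0.00 to 0.45 on the log2 scale. Hom 1 had 0 counts of the Y-linked genes *Ddx3y* and *Kdm5d* (singled out after their values were seen), against at least 243 of each in the other 5 livers. It also had 4 counts of *Eif2s3y*, while *Uty* was detected there with 149 counts, against 464 to 725 in the other livers. Values without Hom 1 are given where they move a result. Hepatocyte markers were by far the most abundant of the marker lists in both groups, but 14 of 22 fell (median log2 fold change -0.76) and their summed level was 196120 to 231673 CPM (counts scaled to a common library size) in WT and 90734 to 128750 in Hom. Cholangiocyte markers rose in 11 of 12 (summed level 73.3 to 105 CPM against 640 to 903) and proliferation markers in 10 of 12 (10.6 to 22.1 against 33.6 to 66.8). Without Hom 3, 7 hepatocyte markers fell and 6 proliferation markers rose. Without Hom 2 these counts were 11 and 3, and without Hom 1 they were 17 and 11. Of the 12 stellate cell markers 6 rose and 2 fell, of the 12 endothelial markers 7 fell and 1 rose, of the 12 macrophage markers 2 rose and 2 fell, of the 8 lymphocyte markers tested 2 rose, and of the 7 erythroid markers tested 2 fell. The macrophage count hung on single livers: without WT 1, 7 rose and 1 fell, and without WT 2, 1 rose and 2 fell. No marker was at 0 in all livers. In whole liver RNA, fewer cells of a type and less RNA per cell cannot be told apart, and the part of these shifts in the results on the members was not tested.

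All 10 members were expressed, and their order by level per gene length was set first, to show which transcripts were most abundant in the liver. In TPM (transcripts scaled by length and library) as deposited, *Pink1* stood highest in WT at 116.8 ± 11.8 (SD, n = 3). *Bnip3* followed at 104.2 ± 4.75 TPM and *Fis1* at 90.2 ± 10.0 TPM. These genes formed an upper tier, in which the WT livers of *Bnip3* and *Fis1* overlapped while those of *Pink1* lay just above *Bnip3* (107.85 TPM at the lowest against 107.8 at the highest). *Bnip3l* (38.3 ± 4.33 TPM) and *Mfn2* (35.3 ± 1.98 TPM) overlapped and made up a middle tier with *Opa1* at 29.3 ± 1.08 TPM. *Mff* (21.6 ± 4.73 TPM), *Dnm1l* (19.3 ± 1.29 TPM) and *Mfn1* (16.1 ± 1.99 TPM) overlapped as neighbours, and *Fundc1* was lowest at 5.82 ± 1.72 TPM. By TPM in WT liver, *Mfn2* thus stood above *Mfn1*, and *Bnip3* above *Bnip3l* and *Fundc1*, the other receptors among the 10 members.

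In Hom 5 members kept their rank and 5 changed it. *Bnip3* (174.5 ± 19.5 TPM) stood above *Pink1* (133.4 ± 3.76 TPM), and *Opa1* (26.2 ± 0.942 TPM) moved from rank 6 to rank 8, below *Mff* (35.9 ± 1.81 TPM) and *Dnm1l* (30.5 ± 3.01 TPM). In WT every *Opa1* value was above every *Mff* and *Dnm1l* value, and in Hom every one was below them. FPKM gave the same ranks in both groups. TPM values are not corrected for the shift in the bulk of genes and are read here only within a group: 9 of the 10 mean TPM values were higher in Hom, *Pink1* among them.

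**Figure D1:**
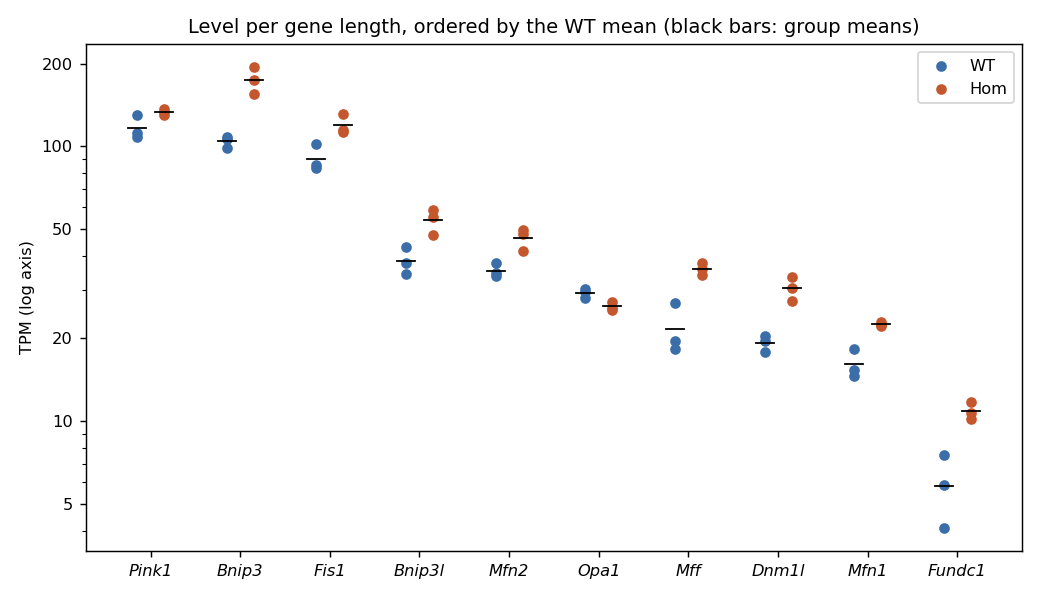
TPM as deposited (log axis) for the 10 members in each WT liver (blue) and Hom liver (orange), ordered by the WT mean, with group means as black bars. Opa1 is the member with a lower mean in Hom (26.2 against 29.3 TPM), and Fundc1 is lowest in both groups.

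The comparison of Hom with WT asked which of these genes differ when *Nek7* is deleted in hepatocytes. Relative to the bulk of genes, *Opa1* and *Pink1* were lower in Hom livers, at 66.3% and 74.4% of their WT means, and *Fis1* was slightly lower at 86.1%. In all, 3 of the 10 members fell at an adjusted p under 0.05, where 20.1% of all tested genes did, and the other 7 did not pass the threshold, where 21.5% of all tested genes rose. At an unadjusted p under 0.05, 3 members were lower and 0 higher with edgeR, and with DESeq2 2 were lower and 0 higher after adjustment. The median log2 fold change of the members was -0.13, with a range from -0.59 to 0.16, against -0.00 for all tested genes. Read against those shares, 3 of 10 is not a result about the members as a group. These directions depend on the scaling: with library size alone 6 members were higher, among them *Mfn1*, *Dnm1l* and *Bnip3*, and *Opa1* and *Pink1* did not pass. Levels between livers are given below in TMM-scaled CPM, which are not per gene length.

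**Figure D2:**
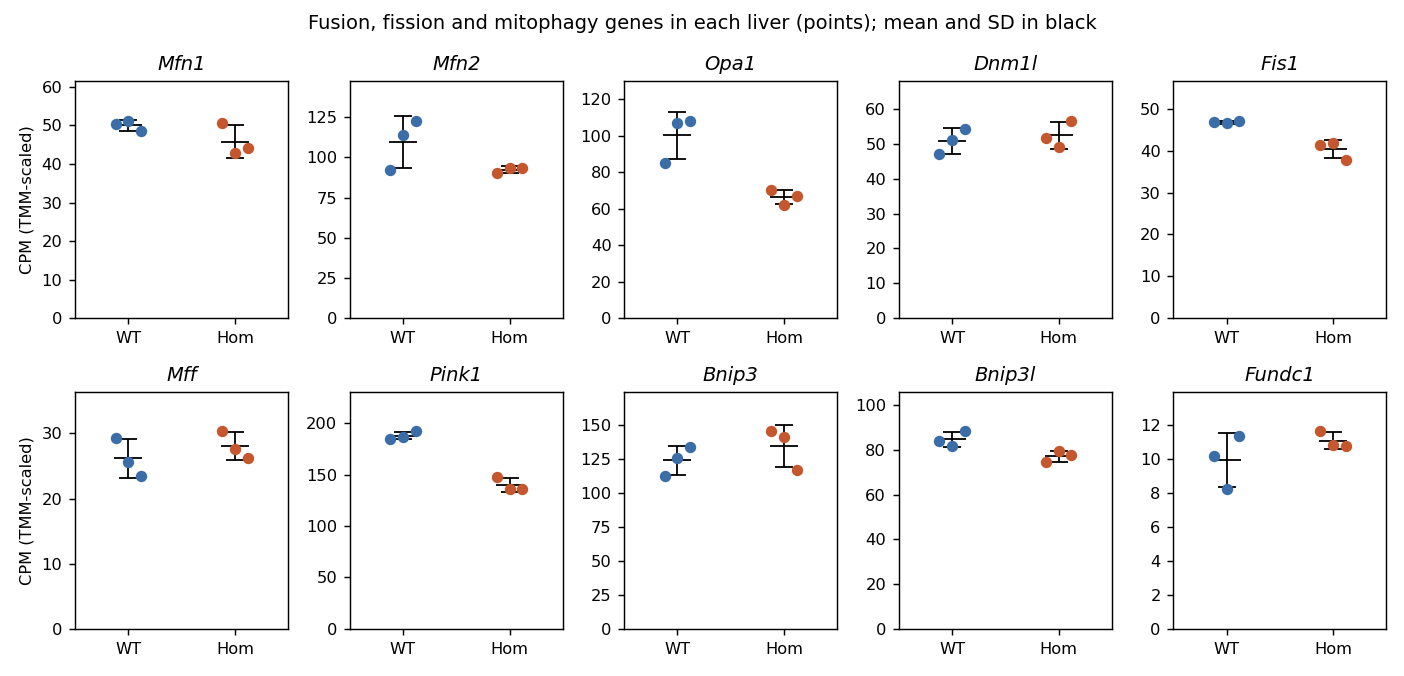
TMM-scaled CPM (linear axes from 0) of each member in the 3 WT (blue) and 3 Hom (orange) livers, with the mean and SD in black. For Opa1, Fis1, Pink1 and Bnip3l every Hom liver lies below every WT liver, and for the other 6 members the groups overlap.

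Among the fusion genes, *Opa1* differed most. Its level was 85.2, 107.0 and 108.2 CPM in the WT livers and 70.1, 62.1 and 67.0 CPM in the Hom livers. Every Hom liver was below every WT liver, and WT 1 was the WT liver nearest to them. *Opa1* fell by 0.59 on the log2 scale (SE 0.11, adjusted p = 0.00676), the largest change of the 10 members, and stood at percentile 12.6 of all tested genes ordered by log2 fold change. An exact permutation test on its CPM gave p = 0.1, the smallest that 3 against 3 livers allow. Without Hom 1 the change was -0.63 (adjusted p = 0.0141), and without WT 1 it was -0.70 (adjusted p = 0.00252). It was called in 13 of 14 alternative fits, from -0.70 to -0.50. The exception was library size alone, where *Opa1* was at -0.13 (adjusted p = 0.243), still below the median gene in that fit.

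The mitofusins did not pass the threshold. *Mfn2* was measured at 91.8, 114.0 and 122.8 CPM in WT and at 90.0, 93.5 and 93.6 CPM in Hom. The Hom livers were close together and overlapped with WT through WT 1 alone. Its log2 fold change was -0.25 (95% interval -0.52 to 0.03, adjusted p = 0.129), and without WT 1 it was -0.36 with an adjusted p of 0.0162, so this library decided the call. *Mfn1* was measured at 50.4, 51.2 and 48.4 CPM in WT and at 50.6, 42.8 and 44.1 CPM in Hom, where Hom 1 lay within the WT range. Its log2 fold change was -0.13 (95% interval -0.33 to 0.08, adjusted p = 0.276), and -0.21 without Hom 1 (adjusted p = 0.0777). The *Mfn1* to *Mfn2* ratio of counts within a liver, which no scaling factor affects, was 0.460 in WT and 0.495 in Hom (geometric means), and the groups overlapped (exact two-sided permutation test, p = 0.5).

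The fission GTPase gene *Dnm1l* was at similar levels in both groups. It was measured at 47.0, 51.1 and 54.3 CPM in WT and at 51.7, 49.1 and 56.7 CPM in Hom, with the groups interleaved. Its log2 fold change was 0.05 (95% interval -0.17 to 0.26, adjusted p = 0.701). The adaptor gene *Mff* was measured at 29.4, 25.7 and 23.5 CPM in WT and at 30.3, 27.6 and 26.2 CPM in Hom, which also overlapped, with a log2 fold change of 0.10 (95% interval -0.16 to 0.35, adjusted p = 0.494). Without Hom 1 it was at 0.04 (adjusted p = 0.820).

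*Fis1*, whose product sits in the outer membrane and binds the fission machinery, was measured at 46.8, 46.5 and 47.2 CPM in WT and at 41.3, 41.8 and 37.8 CPM in Hom. The WT livers were nearly alike and all lay above the Hom livers. *Fis1* fell by 0.22 on the log2 scale (SE 0.072, adjusted p = 0.0478), which was the call nearest to the threshold. It was lost in each of the 14 alternative fits. At 0.747 kb *Fis1* is the shortest member, and with a correction for gene length its log2 fold change was 0.03. Within livers, the *Fis1* to *Mff* ratio of counts was 1.59, 1.81 and 2.00 in WT and 1.36, 1.51 and 1.45 in Hom. Each Hom liver was below each WT liver (difference of -0.32 on the log2 scale), and the exact permutation test, two-sided, could give no p below the 0.1 it gave. This ratio is free of the scaling but not of gene length. With the gene length correction *Fis1* was at 0.03 and *Mff* at 0.23, so the gap between them was smaller.

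Among the mitophagy genes, *Pink1* was lower and the receptors did not pass the threshold. *Pink1* was measured at 184.9, 186.4 and 192.0 CPM in WT and at 147.5, 135.7 and 136.2 CPM in Hom. Both groups were tight and far apart, with Hom 1 the highest of the Hom livers. *Pink1* fell by 0.43 on the log2 scale (SE 0.081, adjusted p = 0.00682) and stood at percentile 19.4 of all tested genes. An exact permutation test on its CPM gave p = 0.1, the smallest possible. Without Hom 1 the change was -0.47 (adjusted p = 0.00730), and in the 13 of 14 alternative fits that called it the range was -0.47 to -0.33. With library size alone it was at 0.027 (adjusted p = 0.821), against 0.45 for the median gene.

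*Bnip3* was measured at 112.8, 125.8 and 133.6 CPM in WT and at 145.5, 141.4 and 117.2 CPM in Hom. Hom 1 and Hom 2 lay above WT, and Hom 3 within its range. The log2 fold change was 0.12 (95% interval -0.15 to 0.39, adjusted p = 0.434), and 0.06 without Hom 1 (adjusted p = 0.725). *Bnip3l* was measured at 84.0, 81.8 and 88.4 CPM in WT and at 74.6, 79.5 and 77.8 CPM in Hom, so that its groups did not overlap, yet the log2 fold change of -0.13 did not pass (95% interval -0.30 to 0.04, adjusted p = 0.174). In all, 4 members had Hom livers entirely below WT, where 27.0% of all tested genes did, and for no member did they lie entirely above, as they did for 28.7% of genes. *Fundc1*, the least abundant member, had 182, 128 and 185 counts in WT and 249, 263 and 249 in Hom. Its levels of 9.91 ± 1.59 and 11.1 ± 0.484 CPM overlapped, and its log2 fold change of 0.16 had the widest 95% interval of the members (-0.18 to 0.50, adjusted p = 0.410). The *Bnip3* to *Bnip3l* ratio of counts was 1.46 in WT and 1.74 in Hom (geometric means), with overlap (exact two-sided permutation test, p = 0.3).

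**Figure D3:**
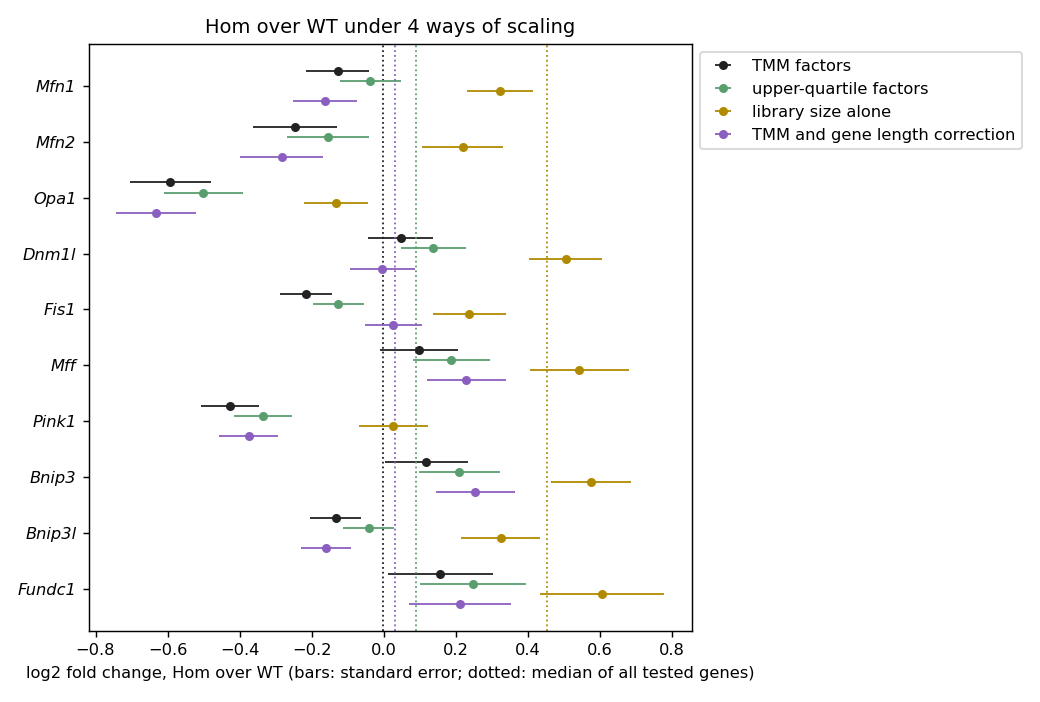
Log2 fold change of Hom over WT with its standard error for each member under TMM factors, upper-quartile factors, library size alone, and TMM with a gene length correction, with the median of all tested genes under each as a dotted line. Library size alone moves every member and the median gene (to 0.45) to the right, and Opa1 and Pink1 stay to the left of the median under all 4.

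Some estimated counts held fractions, which arise when reads fit more than 1 transcript or gene and are shared out. Counts of *Mfn1* and *Opa1* were fractional in all 6 livers, of *Bnip3* in 3, of *Dnm1l* in 2 and of *Bnip3l* in 1, and reads of these genes may be split with similar sequences.

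Ratios between members within a liver do not depend on the scaling, so all 45 pairs were laid out after the values had been seen, as a description with no test. *Opa1* fell against 8 of the 9 other members and overlapped only against *Pink1*, and *Pink1* fell against 7. The *Opa1* to *Dnm1l* ratio set a gene of inner membrane fusion against a gene of fission. It was 1.81, 2.09 and 1.99 in WT and 1.36, 1.27 and 1.18 in Hom, or 64.5% of WT. The *Opa1* ratio was 77.5% of WT against *Fis1* and 62.1% against *Mff*. The *Pink1* to *Bnip3* ratio set a gene of the ubiquitin route against a gene of the receptor route. It was 1.64, 1.48 and 1.44 in WT and 1.01, 0.959 and 1.16 in Hom, or 68.7% of WT. The *Pink1* ratio was 81.6% of WT against *Bnip3l* and 66.2% against *Fundc1*. In each of these ratios every Hom liver was below every WT liver, and they are ratios of RNA, not of activity. Groups did not overlap in 24 of the 45 pairs (53.3%), and in 55.5% of all pairs of tested genes, so the number of separated pairs was at the background.

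**Figure D4:**
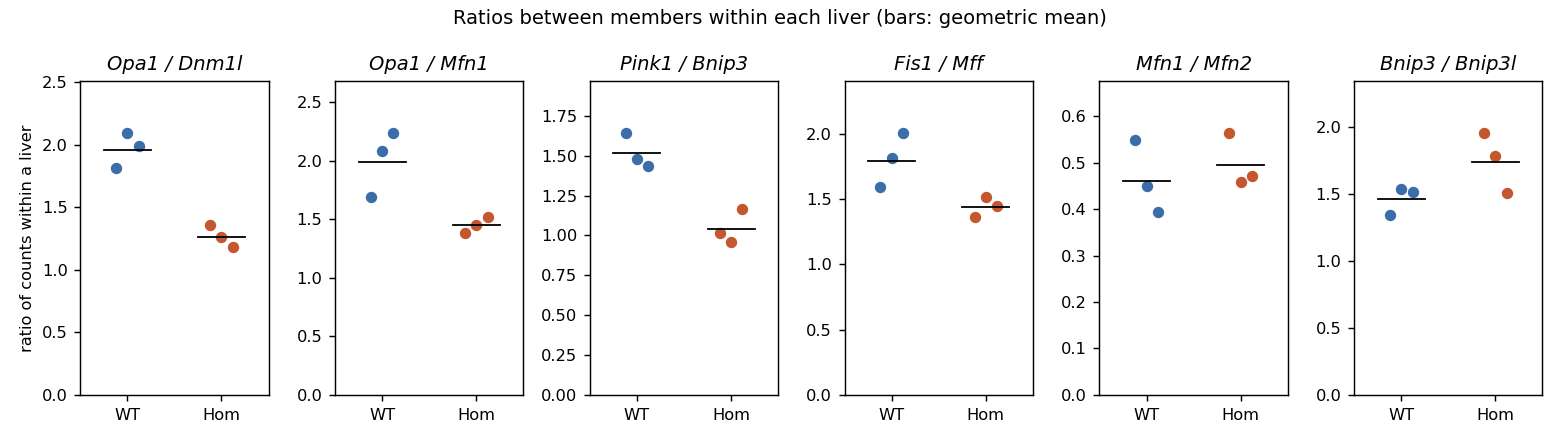
Ratios of counts between members within each WT (blue) and Hom (orange) liver, on linear axes from 0, with the geometric mean as a bar. Opa1/Dnm1l, Opa1/Mfn1, Pink1/Bnip3 and Fis1/Mff separate the groups, and Mfn1/Mfn2 and Bnip3/Bnip3l overlap.

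The other genes of each pathway were counted from lists of their known members, to place the 10 genes among their partners. Their counts stand beside the 20.1% of all tested genes that were lower and the 21.5% that were higher, and no list was tested against other genes, so a count near those shares is not a result about its list. In the fusion and OPA1-processing list, 7 of 15 genes fell and 1 rose (median log2 fold change -0.22). *Phb2*, a scaffold of the inner membrane that stabilises OPA1, fell from 180.0 ± 12.4 to 118.2 ± 9.74 CPM (-0.61, adjusted p = 0.00393), and *Mtch2*, an outer membrane protein, from 165.0 ± 5.41 to 105.4 ± 10.4 CPM (-0.65, adjusted p = 0.00281). *Miga1*, mitoguardin, which promotes fusion at the outer membrane, rose from 1.82 ± 1.04 to 5.97 ± 0.882 CPM (1.70, adjusted p = 0.0124). The proteases that cleave OPA1, named here after their values were seen, did not pass the threshold: *Oma1* was at -0.09 (adjusted p = 0.673) and *Yme1l1* at -0.02 (adjusted p = 0.869).

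MICOS is the complex that holds cristae junctions and works with OPA1. The list of MICOS and cristae junction genes also held *Samm50*, *Mtx1*, *Mtx2* and *Dnajc11*, which are not MICOS subunits. In this list 6 of 11 genes were lower, *Mtx1* among them (-0.42, adjusted p = 0.0129), and 5 were not past the threshold, at a median of -0.39. With the gene length correction 4 were lower and the median was -0.21. *Micos13* fell from 46.5 ± 2.99 to 31.3 ± 2.28 CPM (-0.57, adjusted p = 0.00321) and *Micos10* from 37.7 ± 1.60 to 25.7 ± 1.32 CPM (-0.55, adjusted p = 0.00224). The import and porin list, a general mitochondrial reference, held genes of protein import, the porins *Vdac2* and *Vdac3*, and *Cs*, citrate synthase. It had 12 of 19 genes lower at a median of -0.36, *Cs* among them (-0.61, adjusted p = 0.00818). With the gene length correction 9 were lower and 1 higher, at a median of -0.24. In this list *Hspd1*, a matrix chaperone, was at 333.2 ± 47.5 CPM in WT and 209.9 ± 11.7 CPM in Hom (-0.67, adjusted p = 0.00711). *Timm9*, a chaperone of the intermembrane space, was at 13.2 ± 0.856 and 8.38 ± 0.404 CPM (-0.66, adjusted p = 0.00443).

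Fission partners moved both ways, with 6 of 15 tested genes lower and 3 higher (median -0.28). *Mtfp1*, an inner membrane fission protein, fell from 26.0 ± 1.19 to 14.9 ± 1.15 CPM (-0.81, adjusted p = 0.00127), and *Mtfr1*, mitochondrial fission regulator, from 79.5 ± 9.37 to 50.1 ± 0.536 CPM (-0.67, adjusted p = 0.00281). *Dnm2*, the endocytic dynamin, rose by 0.33 on the log2 scale (adjusted p = 0.0120). *Inf2*, a formin that polymerises actin at contacts of mitochondria and endoplasmic reticulum, rose by 0.38 (adjusted p = 0.0326).

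In the PINK1 pathway list 4 of 17 genes fell and 13 did not pass (median -0.19), and with the gene length correction 2 fell. *Park7*, the gene of DJ-1, fell from 106.4 ± 3.13 to 67.6 ± 4.81 CPM (-0.65, adjusted p = 0.00144) and *Vcp*, the segregase that extracts ubiquitinated proteins, from 443.3 ± 25.7 to 300.8 ± 14.1 CPM (-0.56, adjusted p = 0.00577). Of 15 other mitophagy receptors and their regulators, 5 fell and 1 rose (median -0.25). *Fundc2*, the paralogue of *Fundc1*, rose from 4.78 ± 0.225 to 8.75 ± 0.933 CPM (0.87, adjusted p = 0.00405), while *Nipsnap1*, a mitochondrial signal for autophagy, fell by 0.70 (adjusted p = 0.00231) and *Atad3a* by 0.61 (adjusted p = 0.00373).

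Cargo adaptors and ATG8 genes had 2 of 11 lower and 1 higher (median -0.10), and 1 lower and 1 higher at a median of -0.04 with the gene length correction. *Gabarapl1*, an ATG8 protein that BNIP3-type receptors can bind, fell from 341.2 ± 36.2 to 172.9 ± 43.1 CPM (-0.98, adjusted p = 0.00819). *Gabarapl2* fell by 0.35 (adjusted p = 0.0132), and *Tbk1*, the kinase that phosphorylates the adaptors, rose by 0.32 (adjusted p = 0.0352). In core autophagy 12 of 27 genes fell and 15 did not pass (median -0.19). *Atg13*, a subunit of the initiating ULK complex, fell from 86.5 ± 11.0 to 43.6 ± 2.47 CPM (-0.99, adjusted p = 9.98e-04), and *Atg7*, the activating enzyme of ATG8 lipidation, from 51.9 ± 9.53 to 33.9 ± 3.11 CPM (-0.61, adjusted p = 0.0164).

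The list of HIF target genes, the class to which *Bnip3* belongs, also held *Hif1a* and *Epas1*, which encode HIF subunits themselves. It was split, with 6 of 19 tested genes higher and 4 lower (median 0.04, and 0.00 with the gene length correction). *Epas1* was among the lower genes (-0.63, adjusted p = 0.0182), and *Hif1a* did not pass (0.24, adjusted p = 0.0724). *Hk2*, a hexokinase that is scarce in healthy hepatocytes, rose from 1.66 ± 0.687 to 6.62 ± 0.176 CPM (1.99, adjusted p = 0.00332), and *Pfkfb4*, a regulator of glycolysis, from 2.17 ± 0.551 to 6.21 ± 0.304 CPM (1.51, adjusted p = 0.00282). *Pdk1*, which inhibits pyruvate dehydrogenase, fell from 60.9 ± 5.87 to 24.5 ± 6.40 CPM (-1.31, adjusted p = 0.00285), and *Ldha*, lactate dehydrogenase A, from 710.1 ± 80.4 to 449.1 ± 32.2 CPM (-0.66, adjusted p = 0.00807).

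The lists, too, depended on the scaling. With library size alone the median of every companion list was above 0, from 0.06 for the MICOS and cristae junction list to 0.50 for the HIF list. Relative to the median gene in that fit the medians were between -0.39 and 0.05. Of the 19 genes named outside the members that were lower, 4 (*Nek7*, *Mtfp1*, *Atg13* and *Pdk1*) were still lower with library size alone and 15 did not pass. The 7 higher genes stayed higher. Without Hom 1 the HIF list had 4 lower and 3 higher genes (median -0.07), and the fission partners 4 lower and 2 higher. Without WT 2 the HIF list had 3 lower and 2 higher genes, and without Hom 3 it had 4 and 2. In the PINK1 pathway list 2 genes were lower without WT 3, Hom 2 or Hom 3, and 5 without Hom 1. *Inf2*, *Tbk1* and *Gabarapl2* were also lost when some single livers were left out.

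**Figure D5:**
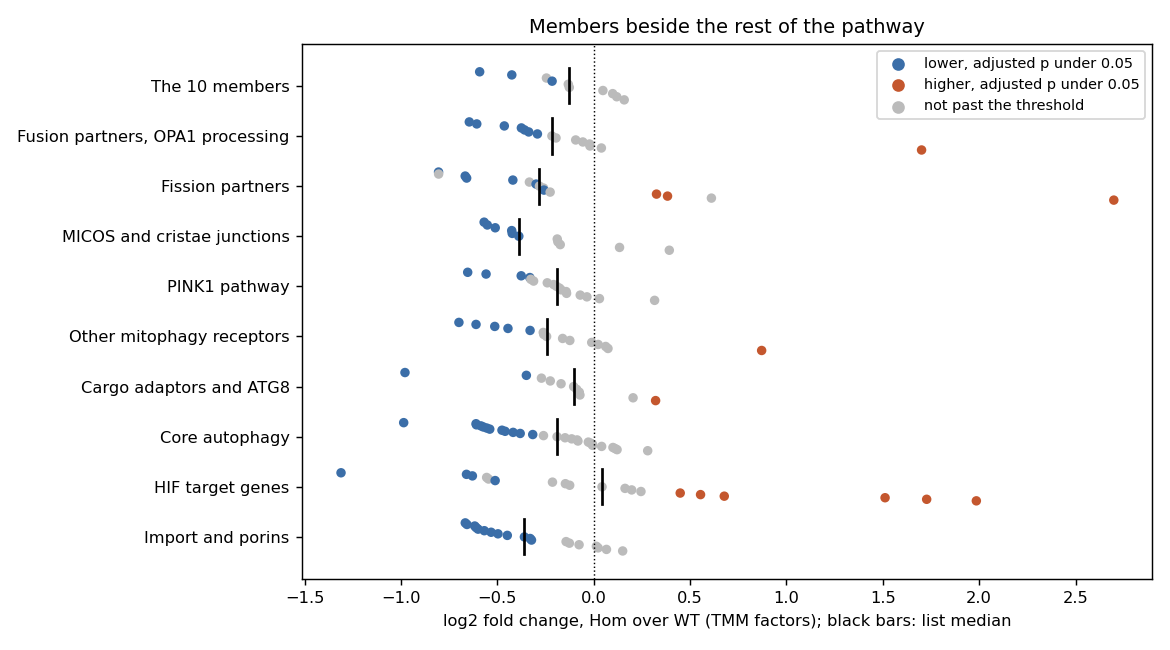
Log2 fold change of Hom over WT with TMM factors for the members and for the tested genes of 9 companion lists, 1 point per gene, coloured by the adjusted p and direction, with the list median as a black bar. The median of the MICOS and cristae junction list is at -0.39 here (-0.21 with the gene length correction), and the genes of the HIF list spread on both sides of 0.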

How the data were processed

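RNA of 6 livers (3 Hom, 3 WT) was sequenced. The submitters' processing notes name HISAT2 2.0.4, Bowtie2 2.2.5, RSEM 1.2.12 and mm9, without roles. The authors deposited per gene and liver estimated counts (expected counts, 65.9% whole), FPKM and TPM. Deposited columns of group means carried the name of the other group in all 17975 genes (tolerance 0.01) and were not used, nor were the authors' own comparisons.

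Estimated counts were rounded and tested with the edgeR 4.0.16 quasi-likelihood test (R 4.3.3, TMM factors, filterByExpr, Benjamini-Hochberg adjustment over 13805 genes, threshold 0.05), and checked on simulated data. CPM use TMM-scaled library sizes. Within-liver ratios used counts plus 0.5. Alternatives were DESeq2 1.42.0, other scalings and filters, a gene length correction (loess in R, span 0.3, length from FPKM), a replicate block and leaving out each liver. Same-numbered livers did not deviate together (correlations -0.11, -0.056 and -0.049), so numbers were not taken as pairs. All 6 libraries differed by more than sampling noise. Named genes were the members, *Nek7* and, per list, up to 2 genes per direction with the largest called change, no overlap between groups and a mean of at least 1 CPM. Members and lists were chosen with earlier results of these data known. *Fundc1*, with the fewest counts, is the least precise member. Another gene that the rule names is not reported here.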

Additional observations from a re-analysis of the deposited data

How the results depend on the processing

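Scaling by library size alone had the largest effect on the calls of the members. With library size alone, 0 members were lower (edgeR, also 0 at an unadjusted p under 0.05; DESeq2 with its own size factors called 2) and 6 were higher. In that fit the median of all tested genes moved from -0.00 to 0.45, and *Mfn1* was at 0.32, *Mfn2* at 0.22 (adjusted p = 0.136), *Fis1* at 0.24, *Pink1* at 0.027, *Bnip3l* at 0.32 and *Gabarapl2* at 0.11, on the other side of 0. *Fis1* was at 0.027 with the gene length correction and at 0.026 with the replicate block and the length correction together. When a log2 change of 1 or more in size was also asked for, 0 members were lower (3 at an unadjusted p under 0.05 without that limit), and 2400 genes of the whole table passed in place of 5754. Leaving out single livers gave 3753 (without Hom 3) to 5807 (without WT 1) genes past the threshold and 2 or 3 members lower. With the replicate block 4597 genes and 2 members passed, *Fis1* being lost (adjusted p = 0.106), as were *Inf2* (adjusted p = 0.0819) and *Tbk1* (adjusted p = 0.0795). The replicate numbers share only a number, and 0 of 6 livers correlated best with the other group's liver of its own number. Over the 14 alternative fits the members kept their call (lower, higher or not past) in 117 of 140 comparisons. The sign was not kept in all of these. *Dnm1l* was at -0.01 without WT 1 and without Hom 3, and *Mfn2* was on the other side of 0 with library size alone, none of them past the threshold. The cause was not tested. The 3 ratios between members use the raw counts of 2 genes within a liver, so scaling, filter, test and replicate block could not move them. Leaving out single livers moved them by less than the spread between livers.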
